A study of Mus musculus with 6 samples.

Results

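The attachment of epithelial cells to the basement membrane was followed in dental epithelial organoids (DEOs) through 9 genes: Lama3, Lamb3 and Lama5, which encode laminin chains, Itga6, Itgb4, Itga3 and Itgb1, which encode integrin chains, and Dst and Plec, which encode plakins. They were taken by symbol from the table of expression values, and all 9 were found among its 47360 gene symbols. DEOs had been grown in Matrigel for 14 days from cells of the apical buds of the incisor, the epithelial stem cell region at the growing end of the tooth, of 9-week-old female C57BL/6J wild-type mice. Every medium held Wnt3a and R-spondin1 as conditioned media, EGF at 100 µg per ml, Noggin at 200 µg per ml, N-acetylcysteine and Y27632, a kinase inhibitor, and this base is called +N. The +ND medium also held dibenzazepine (DBZ), an inhibitor of γ-secretase, the protease that releases the active part of Notch receptors. The +NF medium held FGF10, a growth factor of the tooth mesenchyme, at 100 µg per ml, and +NFD combined DBZ with FGF10. The labels give DBZ at 10 µM, and the methods text gives the same figure in mM. RNA was sequenced from 1 library of each of these 4 media, and the Jagged1 media +NJ and +NFJ were not analysed here. The number of mice or cultures behind a library is not given in the sources used here.

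Basal cells of stratified epithelia rest on a basement membrane whose main adhesive ligand is laminin-332, a trimer whose α chain is encoded by Lama3 and whose β chain is encoded by Lamb3. Integrin α6β4 (Itga6 with Itgb4) binds laminin-332 and is joined to keratin filaments inside the cell by the plakins plectin (Plec) and dystonin (Dst), and this complex, with collagen XVII (Col17a1) and the tetraspanin Cd151, is the hemidesmosome. Integrin α3β1 (Itga3 with Itgb1) also binds laminin-332 but is coupled to actin through focal adhesions, and Itgb1 pairs with many other α chains too. Lama5 encodes the α chain of laminin-511 and laminin-521, which are widespread in epithelial basement membranes. In the incisor, laminins and these integrins lie along the basal face of the dental epithelium, and loss of the laminin-332 chains or of α6β4 is known to cause junctional epidermolysis bullosa, in which enamel is often defective.

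Positions are given on GRCm38. Itgb4 lies at chr11:115974709-116008412 on the plus strand and Itga3 at chr11:95044474-95076801 on the minus strand. Itga6 lies at chr2:71745616-71858416 (plus), Lama5 at chr2:180176373-180225859 (minus), Itgb1 at chr8:128685654-128733200 (plus) and Plec at chr15:76170974-76232574 (minus). Lamb3 lies at chr1:193207699-193343878 (plus) and Dst at chr1:33908225-34308661 (plus). The gene spans are those of the deposited table, and all 9 equal the spans of GENCODE release M21.

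RefSeq promoter windows of GRCm38.p6 were at hand for 5 of the 9 genes, in 8 windows (2 each for Itga3, Dst and Lamb3, 1 each for Itgb1 and Lama5), and not for Lama3, Itga6, Itgb4 or Plec. The bases before the start site are printed for the 2 chains of integrin α3β1, which had unequal responses below, and for Lamb3, which moved apart from Lama3. Each stretch ends before the first annotated exon it would meet, and capitals mark matches, on either strand, to GGGCGG (the GC box bound by SP1) or TGGGAA (the core bound by RBPJ, the DNA-binding partner of Notch). The Itga3 stretch is chr11:95076802-95076964 on the minus strand, the Itgb1 stretch is chr8:128685404-128685653 on the plus strand, and the Lamb3 stretch is chr1:193301744-193301992 on the plus strand.
Itga3: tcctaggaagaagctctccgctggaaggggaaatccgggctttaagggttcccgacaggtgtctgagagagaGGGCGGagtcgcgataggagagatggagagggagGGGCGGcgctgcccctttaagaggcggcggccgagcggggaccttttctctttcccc
Itgb1: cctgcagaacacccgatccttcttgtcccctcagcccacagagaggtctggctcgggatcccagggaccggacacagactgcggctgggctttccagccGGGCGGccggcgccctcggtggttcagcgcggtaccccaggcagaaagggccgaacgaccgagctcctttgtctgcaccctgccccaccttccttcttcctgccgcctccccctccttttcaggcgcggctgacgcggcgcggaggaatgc
Lamb3: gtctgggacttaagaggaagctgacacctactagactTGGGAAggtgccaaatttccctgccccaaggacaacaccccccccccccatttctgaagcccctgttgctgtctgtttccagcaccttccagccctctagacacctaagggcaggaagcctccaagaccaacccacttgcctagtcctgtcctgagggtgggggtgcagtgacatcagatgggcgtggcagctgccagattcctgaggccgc
The full window of 250 bases before this Itga3 start held 3 GGGCGG matches, whose first bases lay at -178, -144 and -35 from the start site, and the last of them is outside the printed stretch. The Itgb1 window held 1 GGGCGG match at -151 and no TGGGAA. The Lamb3 window held 1 TGGGAA match at -213 and no GGGCGG. Among the windows that are not printed, TGGGAA was found once in the other Lamb3 window and once in 1 of the Dst windows. GGGCGG had 4 matches in the other Dst window, 4 in the Lama5 window and 1 in the other Itga3 window. TGANTCA, the AP-1 site, had no match in any of the 8 windows. Of 32851 RefSeq windows of this length, 32.7% held GGGCGG, 21.6% held TGGGAA and 6.75% held TGANTCA, and the matches of these motifs in the 8 windows shared no bases. A match describes the letters only, and no binding was measured.

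Values are the authors' FPKM, fragments scaled to transcript length and library size, so levels of different genes can be set side by side per length. Read totals were not given. From the steps between low values, the libraries of +ND, +NF and +NFD had roughly 0.764, 1.00 and 0.959 times the depth of +N, and the least covered of the 9 genes in any library, Lama5 in +ND, then rests on about 4790 fragments. Counting error alone is at most about 2.83% (95%) for any of them, and it does not cover the spread between cultures. With 1 library per medium that spread is unknown, no test was possible, and a difference between media describes these libraries. In bulk RNA, fewer cells of a type and less RNA per cell cannot be told apart.

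The basal epithelial markers Krt5, Krt14, Krt15, Trp63 and Cdh3 were all at 1 FPKM or more in every library, and their summed FPKM was 19374 (+N), 10729 (+ND), 14974 (+NF) and 12444 (+NFD). This sum is carried by Krt14 (12652, 5530, 8295 and 6090 FPKM) and Krt5 (6582, 4984, 6535 and 6177 FPKM). Krt15 was also highest in +N. Trp63 went the other way, at 88.5, 165.7, 100.4 and 124.2 FPKM, and Cdh3 stayed between 40.4 and 50.9 FPKM, so the markers did not move as 1. The 11 fibroblast markers were above 0 in every library, and their sum was 274.5 (+N), 259.4 (+ND), 174.2 (+NF) and 664.1 (+NFD). The 7 macrophage markers were also all above 0, and their sum was 661.2, 545.2, 466.1 and 414.8 in the same order. No endothelial marker of 5 reached 1 FPKM, and 1 of them was at 0 in +N and +ND and 2 in +NFD. The cultures labelled as dental epithelium thus also held RNA of fibroblast and macrophage marker genes, and fibroblast markers were highest in +NFD.

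The 9 genes covered a wide range of levels. Itga6 was the highest in every library, between 877 and 1317 FPKM, and Plec, Lama5 and Dst were the lowest, between 15.02 and 39.41 FPKM. The level was lowest in +N for 6 of the 9 genes (Lama5, Itgb4, Itga3, Itgb1, Dst and Plec). It was highest in +N for 0 of the 9. Most genes at 1 FPKM or more in the higher library also exceeded their +N level. Their share was 58.2% with DBZ alone, 65.7% with FGF10 alone and 69.1% when both were added. The share of all genes with their lowest level in +N was not computed. Whether a low +N level is particular to the 9 genes was therefore not tested. FGF10 alone gave the highest level of Lama3, Lamb3, Lama5, Itga6 and Itga3, DBZ alone that of Itgb1 and Dst, and both together that of Itgb4 and Plec. The widest spread over the media was that of Itgb4, whose highest level was 2.98 times its lowest, and the narrowest was that of Lama5 at 1.47 times.

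**Figure D1:**
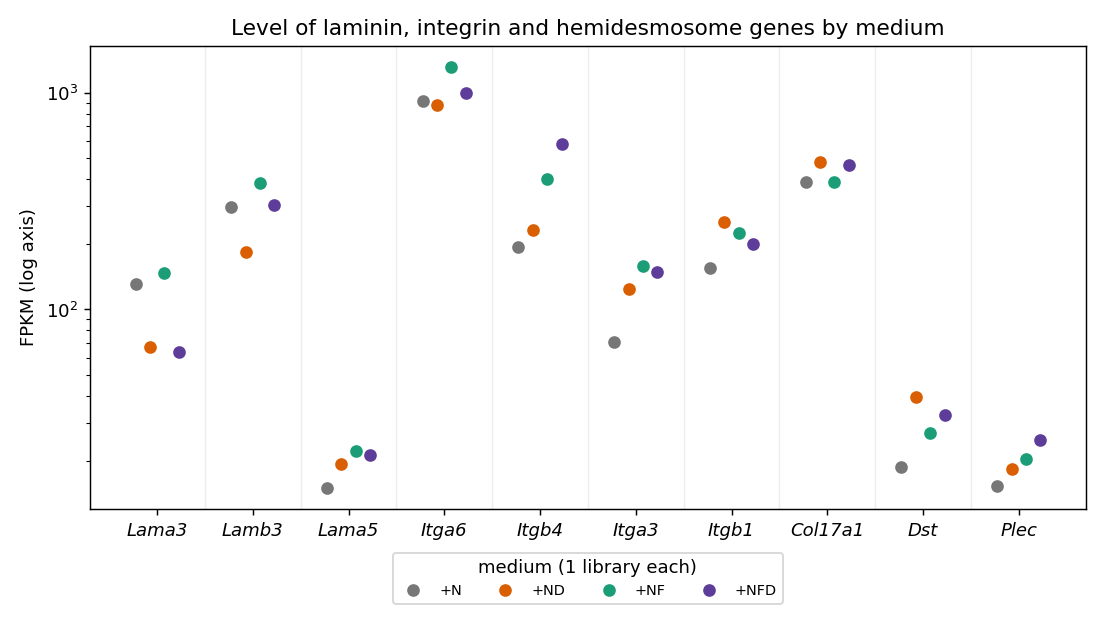
Level of each gene in each medium, in FPKM on a log axis, with 1 point per library and no error because each medium has 1 library. Col17a1, a partner of the 9 genes, is drawn beside them. Lama3 is low in the DBZ media +ND and +NFD, while Itgb4 climbs from 194.8 FPKM in +N to 580.7 FPKM in +NFD.

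Among the ligands, Lama3, the α chain of laminin-332, which lies at chr18:12333819-12583013 on the plus strand, was at 131.8 (+N), 66.9 (+ND), 146.7 (+NF) and 63.7 FPKM (+NFD). The media with DBZ were low and those without it high. The summed FPKM of 6 general epithelial markers (Epcam, Cdh1, Krt8, Krt18, Cldn4 and Esrp1) was also low in both DBZ media, at 790.0, 312.9, 917.3 and 418.8 in that order of media. Esrp1 alone was nearly level, at 78.7, 81.1, 75.3 and 77.1 FPKM, and each of the others was lower in both DBZ media than in the media without DBZ. The part of epithelial content in the Lama3 level was not tested. Against the medium that differs only in DBZ, Lama3 was at 0.508 times the level without FGF10 (log2 ratio -0.97) and at 0.434 times with FGF10 (log2 ratio -1.19). Lamb3, the β chain, was at 297.8 (+N), 185.0 (+ND), 385.0 (+NF) and 303.7 FPKM (+NFD). It was low in +ND like Lama3, but in +NFD it was near the level of +N. The DBZ effect on Lamb3 was 0.621 times without FGF10 and 0.789 times with it. Lama5 stood at 15.02, 19.25, 22.13 and 21.20 FPKM in +N, +ND, +NF and +NFD. It was lowest in +N, and no pair of media differed by 2-fold.

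Lama3 and Lamb3 did not keep 1 proportion. Ratios between genes within a library do not depend on how libraries are scaled. Lama3 is annotated with 2 coding transcripts of 5551 and 10548 nt and Lamb3 with 4 of 1029 to 4867 nt. Values per gene do not separate these forms. Lamb3 was at 2.26, 2.76, 2.62 and 4.77 times Lama3 in +N, +ND, +NF and +NFD, and so exceeded it by the most in +NFD. Of the summed level of Lama3 and Lama5, Lama3 made up 89.77% (+N), 77.66% (+ND), 86.89% (+NF) and 75.03% (+NFD), lower in both DBZ media.

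Among the receptors, Itgb4, the β chain particular to the hemidesmosomal integrin, was at 194.8 (+N), 233.9 (+ND), 401.9 (+NF) and 580.7 FPKM (+NFD). Both FGF10 media were above both media without it. FGF10 went with 2.06 times the level without DBZ (log2 ratio 1.04) and with 2.48 times the level with DBZ (log2 ratio 1.31), and 97.6% and 98.4% of the genes compared had a lower ratio. DBZ went with 1.20 times the level without FGF10 and 1.45 times with it, both short of 2-fold. The fibroblast marker sum was lowest in +NF and highest in +NFD, and its part in the Itgb4 level was not tested. The partner chain Itga6 was at 919.9 (+N), 876.7 (+ND), 1317 (+NF) and 1004 FPKM (+NFD). Itga6 was high in every medium and highest in +NF, and no pair of media differed by 2-fold. Itgb4 was accordingly at 0.212 times Itga6 (+N), 0.267 times (+ND), 0.305 times (+NF) and 0.578 times (+NFD), so that the α chain transcript exceeded the β chain transcript in each library and least in +NFD.

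Itga3, the α chain of integrin α3β1, was at 71.1 (+N), 124.6 (+ND), 158.8 (+NF) and 149.0 FPKM (+NFD). It was low in +N alone. FGF10 went with 2.23 times the level without DBZ and only 1.20 times with it, and DBZ went with 1.751 times the level without FGF10 and 0.938 times with it. Itgb1, the common β chain, was at 155.2 (+N), 253.4 (+ND), 225.6 (+NF) and 200.1 FPKM (+NFD). It too was lowest in +N, and no pair of media differed by 2-fold. Itgb1 is also carried by fibroblasts and macrophages. The fibroblast marker sum was highest in +NFD and the macrophage marker sum in +N, and the part of those cells in the Itgb1 level was not tested. The ratio of Itga3 to Itgb1 was 0.458 (+N), 0.492 (+ND), 0.704 (+NF) and 0.745 (+NFD), higher in both FGF10 media. Of the summed level of the 2 β chains, Itgb4 made up 55.7% (+N), 48.0% (+ND), 64.1% (+NF) and 74.4% (+NFD).

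Among the plakins, Dst was at 18.7 (+N), 39.4 (+ND), 26.9 (+NF) and 32.4 FPKM (+NFD). It was highest in both DBZ media. DBZ went with 2.11 times the level without FGF10 and 1.20 times with it. Plec was at 15.29 (+N), 18.41 (+ND), 20.32 (+NF) and 25.05 FPKM (+NFD), and no pair of media differed by 2-fold. The ratio of Dst to Plec was 1.22 (+N), 2.14 (+ND), 1.33 (+NF) and 1.29 (+NFD), so that +ND stood apart from the other 3. Dst is annotated with 14 coding transcripts of 776 to 23279 nt and Plec with 21 of 254 to 15455 nt. Dst is known for neuronal and muscle forms beside the epithelial one, and values per gene do not separate them. Col17a1, the collagen of the hemidesmosome, was nearly level at 386.9, 481.6, 388.0 and 462.6 FPKM, and Itgb4 went from 0.503 times Col17a1 in +N and 0.486 times in +ND to 1.04 times in +NF and 1.26 times in +NFD.

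Some transcripts overlap the 9 genes, and the strand setting of the authors' counting is not given in the sources used here, so fragments of a gene and of one on the opposite strand cannot be told apart. B230344G16Rik, opposite Itgb4, was at 0.790, 1.55, 2.37 and 3.49 FPKM in +N, +ND, +NF and +NFD, the same order of media as Itgb4. Gm29200, opposite Lama3, was at 9.92, 5.64, 12.4 and 6.18 FPKM, and Gm26788, opposite Dst, was at 3.98, 7.13, 4.63 and 6.72 FPKM. G0s2, a regulator of lipid breakdown inside the span of Lamb3 on the other strand, was at 9.31, 1.71, 18.8 and 14.3 FPKM. Each of these was well under the level of the gene it overlaps.

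**Figure D2:**
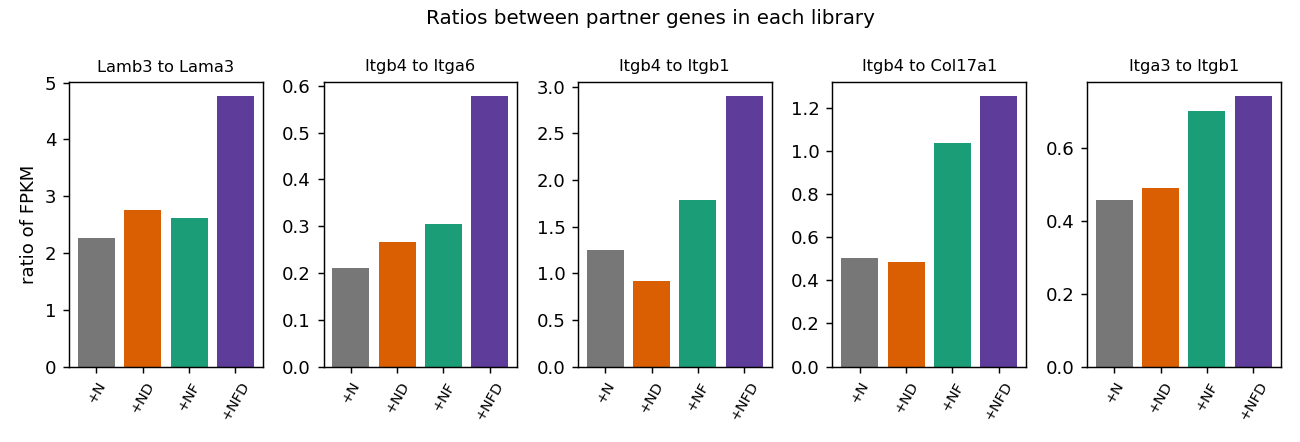
Ratio of FPKM between partner genes within each library, as bars from 0 with a separate axis for each pair and no error because each medium has 1 library. All 5 ratios, those of Lamb3 to Lama3, Itgb4 to Itga6, Itgb4 to Itgb1, Itgb4 to Col17a1 and Itga3 to Itgb1, are highest in +NFD. These pairs are a choice among those computed, and several share Itgb4. Among pairs not drawn, Dst to Plec was highest in +ND (2.14) and Itga6 to Itga3 was lowest in +NFD (6.74).

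The study asked how FGF10 and blockade of Notch, alone and together, change the organoids relative to +N. Changes were computed as log2((FPKM + 1)/(FPKM + 1)) over genes at 1 FPKM or more in the higher library, which understates changes of low genes, and were counted from 2-fold upwards. All 9 genes passed this limit in every comparison. With DBZ alone, 1 of the 9 was at least 2-fold higher than in +N (Dst, log2 ratio 1.03), beside 5.88% of 13173 genes, and 0 were at least 2-fold lower, beside 5.29%. Of the 9, 6 lay above 0, beside 58.2% of genes, and their median log2 ratio was 0.26, beside 0.10 for all genes. Lama3 at -0.97 fell just short of the 2-fold limit and Dst was just past it, and both crossed it when ratios were centred on the median of all genes (-1.07 and 0.93).

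With FGF10 alone, 2 of the 9 were at least 2-fold higher (Itga3 at a log2 ratio of 1.15 and Itgb4 at 1.04), beside 2.76% of 13090 genes, and 0 were 2-fold lower, beside 2.44%. All 9 lay above 0, beside 65.7% of genes, with a median of 0.52 against 0.12. Values of the other 7 ran from 0.15 for Lama3 to 0.54 for Itgb1. With the ratios centred on the median of all genes, Itgb4 fell short of the limit at 0.92 and Itga3 stayed past it at 1.03.

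With FGF10 and DBZ together, 2 of the 9 were at least 2-fold higher than in +N (Itgb4 at 1.57 and Itga3 at 1.06), beside 5.85% of 13358 genes, and 1 was at least 2-fold lower (Lama3 at -1.04), beside 4.03%. Of the 9, 8 lay above 0, beside 69.1% of genes, with a median of 0.47 against 0.18. Dst (0.76), Plec (0.68), Lama5 (0.47) and Itgb1 (0.36) lay between the extremes, and Itga6 (0.13) and Lamb3 (0.028) were near 0, with signs that turned when ratios were centred on the median of all genes. Itga3 fell short of 2-fold at 0.88 under that centring, and Lama3 did at -0.90 when every library was rescaled to the same total. Itgb4 was past 2-fold in this comparison under every alternative tried, between 1.39 and 1.71. These 3 comparisons share the +N library, so they are not independent of each other.

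**Figure D3:**
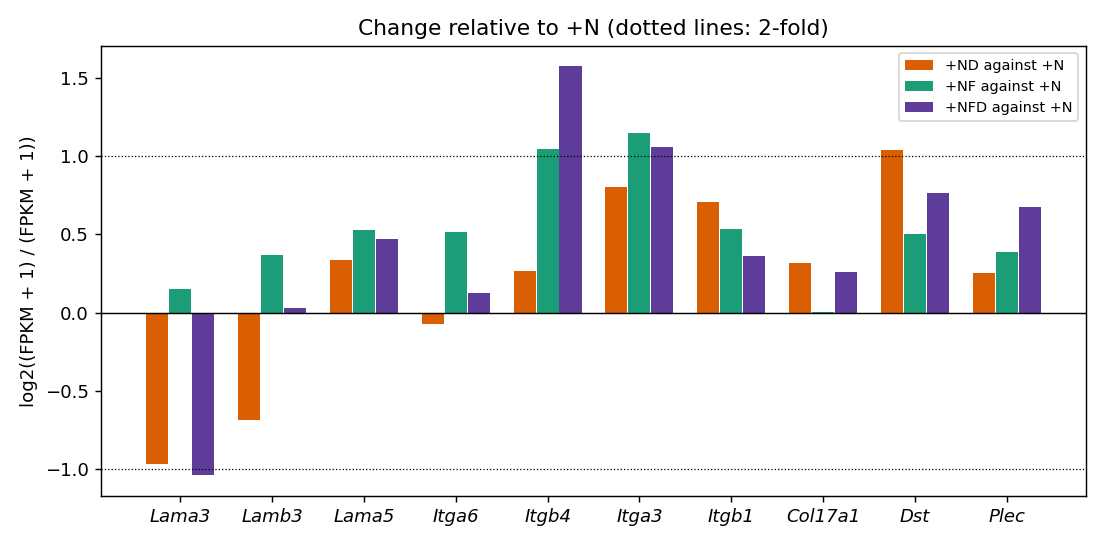
Log2 ratio of each gene to +N in +ND, +NF and +NFD, as bars from 0 with dotted lines at 2-fold. Itgb4 reaches 1.57 and Itga3 1.06 in +NFD, and Lama3 falls to -1.04, while in +NF all 9 genes lie above 0.

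The remaining comparisons change 1 factor with the other present. FGF10 added to DBZ medium (+NFD against +ND) gave 1 of the 9 at least 2-fold higher (Itgb4, 1.31), beside 3.39% of 13293 genes, and 0 at least 2-fold lower, beside 3.11%. Above 0 were 6 of the 9, beside 59% of genes. Lamb3 followed at 0.71 and Plec at 0.42, and Itgb1 (-0.34), Dst (-0.27) and Lama3 (-0.070) lay below 0. DBZ added to FGF10 medium (+NFD against +NF) gave 0 of the 9 at least 2-fold higher, beside 3.72% of 13349 genes, and 1 at least 2-fold lower (Lama3, -1.19), beside 2.69%. Itgb4 (0.53), Plec (0.29) and Dst (0.26) were the 3 above 0 there, beside 57.2% of genes, and the median of the 9 was -0.092 against 0.048 for all genes.

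The 4 media form a 2 by 2 layout, in which the DBZ effect was read with and without FGF10 from libraries that do not overlap. The DBZ effect had the same sign in both for 6 of the 9 genes, beside 61.2% of 13748 genes, and the FGF10 effect likewise for 6 of the 9, beside 55.2%. Lama3, Lamb3 and Itga6 were below 0 with DBZ in both backgrounds, and Itgb4, Dst and Plec above 0 in both. The difference between the DBZ effects (with FGF10 minus without) was largest in size for Itga3 at -0.89, Itgb1 at -0.88 and Dst at -0.78. For comparison, the median absolute difference over all genes was 0.34 and its 90th percentile was 0.92, and these 3 genes exceeded 89.1%, 88.6% and 85.0% of genes. For the other 6 it was smaller in size, at -0.40 for Lama5, -0.32 for Itga6, -0.22 for Lama3, 0.036 for Plec, 0.27 for Itgb4 and 0.34 for Lamb3, and Lama5, the largest of these in size, exceeded 56.6% of genes. None of these differences was tested.

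**Figure D4:**
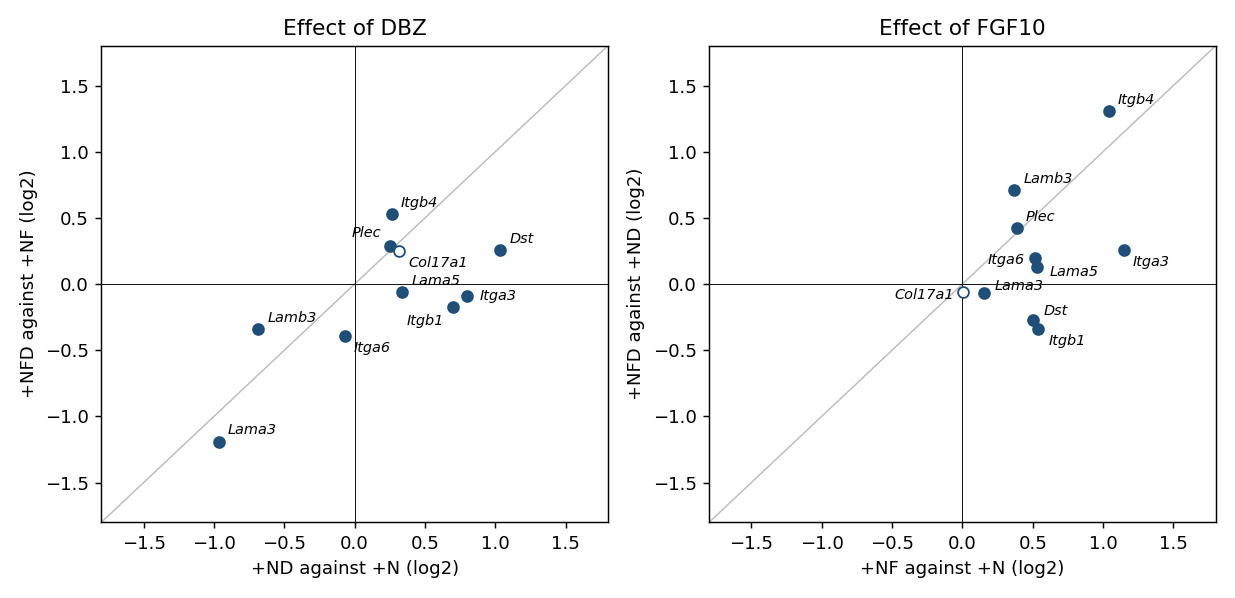
Log2 effect of DBZ (left) and of FGF10 (right) without the other agent on the x axis and with it on the y axis, with 1 filled point for each of the 9 genes, an open point for Col17a1, and the grey line where both are equal. Lama3 lies near the lower end of the left panel, Itgb4 at the upper end of the right panel, and Itga3 below the line in both.

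The genes around these 9 in the same pathway moved unevenly. Lama4, a laminin α chain of vessels and mesenchyme, was 2-fold higher in +NFD than in +N (0.450 and 2.43 FPKM, log2 ratio 1.24). Lamb1, the β chain of laminin-511, was 2-fold higher with FGF10 alone (10.8 to 23.4 FPKM, log2 ratio 1.046). The hemidesmosome and keratin partners Col17a1, Cd151, Krt5 and Krt14 had medians of -0.38 with DBZ, -0.0077 with FGF10 and -0.079 with both, and the 2-fold changes were those of Krt14, a basal keratin, at -1.194 in +ND and -1.055 in +NFD.

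Of 16 other integrin α chains, 8 passed the level limit. Itga1, a collagen-binding chain that pairs with Itgb1, was at 0.485 (+N), 2.99 (+ND), 4.38 (+NF) and 4.59 FPKM (+NFD), and so was 2-fold higher than +N in all 3. Itgam, a leukocyte chain, was 2-fold lower with DBZ alone (-1.12). Of 6 other β chains, 4 passed, and Itgb3 was at 4.86, 1.24, 2.44 and 1.19 FPKM in +N, +ND, +NF and +NFD, 2-fold lower in both DBZ media. Itgb5, the most abundant of the others, lay between 54.8 and 94.3 FPKM without a 2-fold change.

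Of 20 integrin adaptor and focal adhesion genes, 18 passed the limit in +NFD against +N, 11 lay above 0 and the median was 0.16, close to that of all genes. The 1 past 2-fold was Fermt2 (kindlin-2), at 1.88 FPKM in +N and 6.52 in +NFD, a gene that mesenchymal cells also use, and the fibroblast marker sum was 2.42 times as high in +NFD as in +N. The part of fibroblasts in this change was not tested. Of 16 other basement membrane genes, 10 passed in the same comparison. Of these, 9 lay above 0, beside 69.1% of all genes, with a median of 0.75 against 0.18. Col4a1 (1.01), Nid1 (1.09) and Frem1 (1.13, listed at 0 in +N and at 1.19 FPKM in +NFD) were 2-fold higher, beside 5.85% of all genes. The part of fibroblasts in these 2-fold changes was not tested either. With FGF10 alone, Col18a1 was 2-fold higher (67.9 to 187.7 FPKM, log2 ratio 1.45) and Agrn, a heparan sulfate proteoglycan, was at 0.99. In +NF the fibroblast marker sum was 0.634 times that in +N, and its part in the Col18a1 and Agrn levels was not tested. The laminin-332 processing proteases Bmp1 and Mmp14 stayed within 2-fold in each comparison.

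The 12 core genes of the desmosome, the junction between neighbouring epithelial cells, also anchor keratin filaments, and gave another picture than the 9 genes. Their median log2 ratio to +N was -0.20 in +ND, -0.57 in +NF and -0.51 in +NFD, beside 0.26, 0.52 and 0.47 for the 9 genes. Above 0 were 4 of 12 in +ND, 2 of 12 in +NF and 2 of 12 in +NFD, beside 58.2%, 65.7% and 69.1% of all genes. Dsc1 (4.06) and Dsg1a (1.84), cadherins of differentiating layers, and Dsc3 (1.03) were 2-fold higher with DBZ alone, and Dsc1 (-1.60) and Dsg1a (-1.96) were 2-fold lower with FGF10 alone. In +NFD against +N, Pkp1 was at -1.09 and Dsc1 at 1.53. A low median was not particular to the desmosome. The other integrin β chains had medians of -0.68, -0.14 and -0.55 in +ND, +NF and +NFD, and the other α chains 0.031, -0.065 and -0.13. Those of the other basement membrane genes were above 0, at 0.34, 0.53 and 0.75. The differences between the lists were not tested, since each medium has 1 library.

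**Figure D5:**
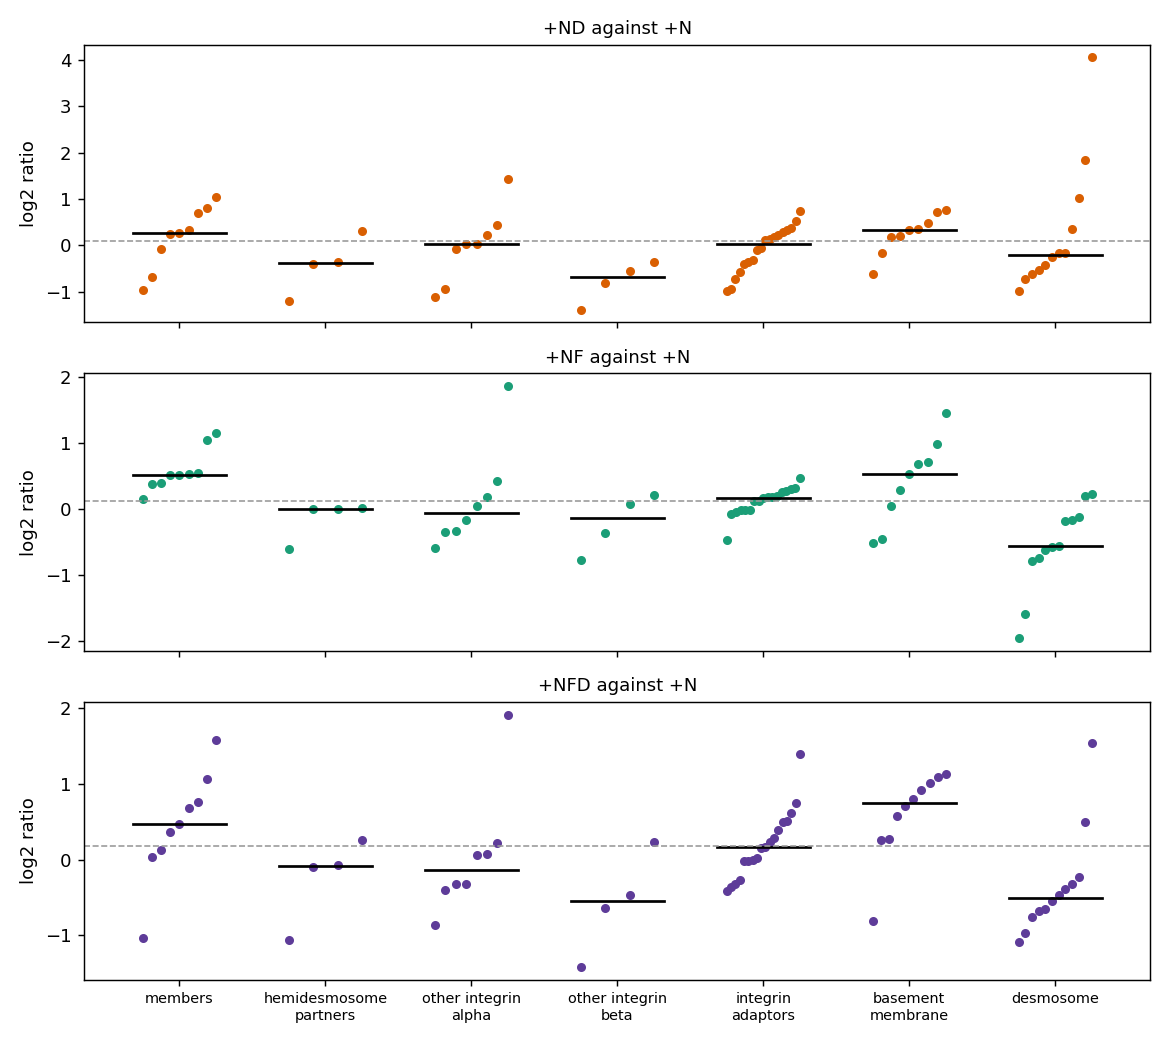
Log2 ratio to +N of every gene of each list drawn that passed the level limit, 1 point per gene, in +ND, +NF and +NFD, with a black bar at each list's median and a dashed line at the median of all genes. The 9 genes are labelled members, and their medians of 0.26, 0.52 and 0.47 stand above the dashed line in each panel. The desmosome medians of -0.20, -0.57 and -0.51 stand below it. So do those of the hemidesmosome partners and of the other integrin α and β chains, while those of the basement membrane genes stand above it.

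Similarity between genes was measured as the Euclidean distance between their log2(FPKM + 1) profiles over the 4 libraries, each less its own mean, among 10466 other genes at 5 FPKM or more in at least 1 library. Nearest to Itgb4, which had the widest range of the 9, were Cd40, a receptor of the tumour necrosis factor receptor family (distance 0.151), Ank, a pyrophosphate transporter (0.160), Gnb4, a G protein β subunit (0.171), Tbx1, a T-box transcription factor (0.191), and Timp1, a metalloproteinase inhibitor (0.231). Tbx1, for example, was at 11.99, 12.12, 24.10 and 32.80 FPKM in +N, +ND, +NF and +NFD. None of the other 8 genes was as near, and Itga6, the partner chain of Itgb4, was at a distance of 1.07, at rank 2803 among its neighbours. Lamb3 ranked 739 among the neighbours of Lama3, at a distance of 0.806.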

How the data were processed

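RNA-seq of DEOs was available as 1 table for the whole series, and the columns of +N, +ND, +NF and +NFD (1 library each) were used. Libraries had been made with a TruSeq kit and sequenced on an Illumina HiSeq sequencer. Per the submitters' processing notes and the paper's methods, the authors used FastQC 0.11.9 for quality control, Trim Galore 0.6.5 for trimming, TopHat2 2.1.1 for alignment to GRCm38 and Cufflinks for the deposited FPKM values. The annotation release, strand setting and read totals are not given in the sources used here. FPKM divides by transcript length and library size, so the values of a gene also depend on how abundant the most highly expressed transcripts are.

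Values of entries with the same symbol were summed (123 symbols had several entries, none of them of the 9 genes). Ratios were log2((FPKM + 1)/(FPKM + 1)) over genes at 1 FPKM or more in the higher library, counted from 2-fold. The paper set this fold limit in its volcano plots together with a P-value limit, and chose genes for its ontology terms by P-value. No test was made, because there is 1 library per medium. Relative depth was estimated from the steps between low values of 8367 genes with 1 annotated transcript of at least 1000 nt, where 1 fragment was worth 0.0350, 0.0458, 0.0348 and 0.0365 FPKM kb in +N, +ND, +NF and +NFD. The steps are blurred by the authors' estimation, so depths are approximate, and fragment numbers assume the longest coding transcript. Positions came from the table and GENCODE M21, which holds 46994 of the 47493 gene identifiers, and promoter sequences came from RefSeq (GRCm38.p6).

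The 9 genes, the pathway lists and the markers of basal epithelium, epithelium, fibroblasts, macrophages and endothelium were chosen with earlier results of these data known. Named were the 9 genes, genes of the pathway lists changed 2-fold against +N, partners on which a result turned, and the 5 genes nearest to the one with the widest range. Listed genes changed 2-fold in +NFD against +ND or +NF were not all named. The list of other laminin chains is not reported here as a whole. The genes given as overlapping the 9 were chosen after their values were seen. Alternatives were a pseudocount of 0.1, none, no level limit, a limit of 5 FPKM, upper-quartile scaling, centring on the median ratio, rescaling every library to an equal sum, the highest entry per symbol and, added after the data were seen, scaling on 4 epithelial genes. The computations were tested on simulated data. Python 3.11.15, numpy 2.4.6, pandas 2.3.3 and matplotlib 3.10.9 were used.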

Additional observations from a re-analysis of the deposited data

Results flagged for a closer look

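For 5 of the 9 genes, an agent went with opposite signs of the log2 ratio depending on the other agent. The sign was kept for 6 of the 9 genes with DBZ, beside 61.2% of 13748 genes. With FGF10 it was also kept for 6 of the 9, beside 55.2%. A change of sign was thus no more common among the 9 than over all genes. Each side rests on 1 library per medium, so the difference was not tested. DBZ went with a ratio above 0 without FGF10 and below 0 with it for Itga3 (0.80 and -0.092), Itgb1 (0.70 and -0.17) and Lama5 (0.34 and -0.059). FGF10 went with a ratio above 0 without DBZ and below 0 with it for Itgb1 (0.54 and -0.34), Dst (0.50 and -0.27) and Lama3 (0.15 and -0.070). Itgb1 alone changed sign for both agents, and it was highest in +ND. In each of these 6 cases the negative side was short of 2-fold.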

How the results depend on the processing

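No paired analysis was possible because each medium has 1 library. Of 405 ratios recomputed for the 9 genes under 9 alternatives, 6 changed sign, all of them of Itga6 or Lamb3 with a log2 ratio of at most 0.13, and 12 crossed the 2-fold limit, while 0 of the ratios past 2-fold turned direction. Of 90 counts of genes past 2-fold, 12 moved, each under another scaling. In +ND against +N, upper-quartile scaling, centring on the median ratio and epithelial scaling each gave 0 genes 2-fold higher in place of 1 and 1 gene 2-fold lower in place of 0, as Dst left the count and Lama3 entered it. In +NF against +N, upper-quartile scaling and centring each gave 1 gene 2-fold higher in place of 2, with Itgb4 at 0.96 and 0.92. In +NFD against +N, upper-quartile, centred and epithelial scaling each gave 1 in place of 2, with Itga3 at 0.95, 0.88 and 0.91, and rescaling every library to an equal sum gave 0 genes 2-fold lower in place of 1, with Lama3 at -0.90. The pseudocount, the level limit and the choice of entry moved no count. Leaving out a replicate was not possible with 1 library per medium.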

Other observations

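Summed over Itga6, Itgb4, Dst, Plec, Col17a1 and Cd151, hemidesmosome genes were at 1667 (+N), 1752 (+ND), 2285 (+NF) and 2230 FPKM (+NFD), higher in both FGF10 media, with Itga6 the largest part of each sum. The genes did not share the rise evenly. From +N to +NFD, Itgb4 went from 194.8 to 580.7 FPKM and Itga6 from 919.9 to 1004 FPKM. Dst, Plec and Col17a1 were also higher in +NFD, and Cd151 was lower (130.9 and 125.0 FPKM).

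Gm22340, a short rRNA gene annotated inside the span of Lama3 on the opposite strand, was listed at 365 FPKM in +N and at 0 in the other 3 libraries. Parp10, which overlaps Plec on the same strand, was at 10.2, 5.50, 9.93 and 4.44 FPKM in +N, +ND, +NF and +NFD, low in both DBZ media, where Plec was not.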
